A study of Mus musculus with 8 samples.

Results

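The genes described here are 10 core components of the TGF-beta pathway, measured in the mouse leukaemia line PER-M60: the ligand Tgfb1, the receptors Tgfbr1 and Tgfbr2, the signal transducers Smad2, Smad3 and Smad4, the inhibitory Smad7, the co-repressors Ski and Skil, and the ubiquitin ligase Smurf2. They were chosen by name, with earlier results of these data known, and their Ensembl identifiers were looked up in the GENCODE M21 annotation. All 10 were found among the 21859 gene identifiers counted. RNA sequencing counts came from 8 cultures, 4 in control medium and 4 in medium conditioned by osteoclasts, the cells that resorb bone. The labels name no other treatment, no time and no dose, and every culture is of the same cell line, so the data stand for 1 line. The labels give the cell type only as leukaemia. The B-lineage markers Cd79a, Cd79b, Pax5, Ebf1, Vpreb1, Igll1 and Blnk were expressed in every culture, from 141 normalised CPM (counts scaled to library size, with TMM factors) for the lowest value of Blnk to 1320 for the highest of Pax5.

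TGF-beta ligands bind the type II receptor TGFBR2, which recruits and phosphorylates the type I receptor TGFBR1. TGFBR1 phosphorylates SMAD2 and SMAD3, which join SMAD4 and enter the nucleus to regulate transcription. SMAD7 blocks the receptor and brings in SMURF ligases that mark it for destruction, while SKI and SKIL (SnoN) bind SMAD complexes and repress their targets; Smad7 and Skil are themselves well-known targets of the pathway. Bone matrix stores latent TGF-beta, osteoclasts can free it, and in B-lineage cells the pathway is known to restrain proliferation.

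The sequences upstream of Tgfbr2, Ski and Tgfbr1 are shown because the first of these had the largest change of the members, the second the next largest, and the third encodes the receptor partner of the first. Each run is the 250 bases before the RefSeq start site (GRCm38.p6), printed 5′ to 3′ on the gene's own strand. Capitals mark CAGAC (the SMAD box) and GGGCGG (the GC box that Sp1-family factors bind), each searched on both strands, so that GTCTG and CCGCCC are marked too. The window of Tgfbr2 is chr9:116175364-116175613 (minus strand), that of Ski chr4:155222536-155222785 (minus strand) and that of Tgfbr1 chr4:47352972-47353221 (plus strand). The RefSeq start site of Ski lies 57 bases inside the M21 gene, so the last 57 bases of its window are within that gene's span.
Tgfbr2: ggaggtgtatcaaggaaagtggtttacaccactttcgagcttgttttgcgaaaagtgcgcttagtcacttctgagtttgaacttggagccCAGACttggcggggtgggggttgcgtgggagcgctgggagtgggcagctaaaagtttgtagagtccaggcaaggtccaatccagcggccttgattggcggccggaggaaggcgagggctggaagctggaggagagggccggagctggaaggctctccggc
Ski: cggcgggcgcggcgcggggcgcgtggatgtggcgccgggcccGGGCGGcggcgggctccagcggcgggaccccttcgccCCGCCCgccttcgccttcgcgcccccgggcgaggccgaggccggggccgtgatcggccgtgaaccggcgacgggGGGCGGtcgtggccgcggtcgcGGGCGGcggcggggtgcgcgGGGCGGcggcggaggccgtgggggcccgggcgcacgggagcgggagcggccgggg
Tgfbr1: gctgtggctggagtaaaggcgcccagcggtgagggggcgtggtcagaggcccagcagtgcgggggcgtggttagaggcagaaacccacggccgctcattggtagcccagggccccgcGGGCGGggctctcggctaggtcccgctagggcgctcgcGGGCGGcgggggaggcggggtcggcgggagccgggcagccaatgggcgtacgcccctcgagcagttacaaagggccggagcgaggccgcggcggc
The Tgfbr2 window held 1 CAGAC, whose first base lies 160 bases before the start site, and 0 GGGCGG. The Ski window held 5 GGGCGG and the Tgfbr1 window 2, and neither held CAGAC. Among the member windows not printed, that of Smurf2, which did not pass the test below, also held 1 CAGAC, 203 bases before its start site. The GC content was 58.4% for Tgfbr2, 87.6% for Ski and 74.8% for Tgfbr1. Among 32851 mouse windows of this length, 42.2% held CAGAC on either strand and 32.7% held GGGCGG, so a match to either is common. The full palindrome GTCTAGAC, found in 0.167% of windows, was in none of the 6 member windows that the table holds. The marked motifs did not overlap each other in the 3 windows printed, and a match describes letters only, not binding.

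Total counts ran from 15391754 to 21637966 per culture, and 3 counts, taken as the detection floor, corresponded to 0.139 to 0.195 CPM. The chi-square statistic over genes, divided by its degrees of freedom, ran from 1.37 to 5.04 for library pairs of the same medium and from 7.48 to 12.4 for library pairs from different media, so each library was kept as a replicate. Control pairs that held replicate 2 ran from 3.25 to 5.04, and the other control pairs from 1.74 to 2.42. Conditioned pairs that held replicate 4 ran from 2.53 to 2.74, and the other conditioned pairs from 1.37 to 1.55. The labels name no batch and do not say whether the replicates came from separate cultures, so p-values measure the spread between these 8 samples, which may be technical; each is called a culture here. Every member passed the filter on low counts, with 305 to 9241 counts per culture. No member's exons lie under another gene of the table. Of the 10729 genes tested with edgeR's quasi-likelihood test, 30.5% had an adjusted p under 0.05, 15.7% higher and 14.8% lower in osteoclast-conditioned medium.

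With this test, 4 of the 10 members rose in osteoclast-conditioned medium (Tgfbr2, Ski, Skil and Smad4), 0 fell and 6 did not pass. Against 30.5% of all tested genes, 4 of 10 is a share near the background and sets nothing apart about the members as a group. The groups did not overlap in 5 members, the 4 called and Smad7, where 28.2% of all tested genes had no overlap. The median log2 fold change of the members was 0.10, against -0.01 for all tested genes, and the median absolute change was 0.10 against 0.09. Changes were small: the largest was a rise of 25.6%. In RNA from whole cultures, more cells expressing a gene and more RNA of it per cell cannot be told apart.

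Levels can be compared between genes per kilobase of exon. In control medium Tgfb1 was the most abundant member, with 82.1 ± 2.18 normalised CPM per kb (SD, n = 4), followed by Smad4 with 18.1 ± 0.618. Ski (8.25 ± 0.211), Tgfbr2 (7.85 ± 0.171), Smad2 (7.48 ± 0.514), Smad7 (7.27 ± 0.290) and Smurf2 (6.82 ± 0.247) lay close together. From Tgfbr2 to Smurf2, each gene's range over the control cultures overlapped that of the next in this order. Tgfbr1 (5.74 ± 0.281), Smad3 (3.64 ± 0.297) and Skil (2.55 ± 0.0662) followed, each below the range of the one before. In osteoclast-conditioned medium Ski (10.1 ± 0.224) and Tgfbr2 (9.85 ± 0.453) overlapped each other and lay above Smad7 (7.78 ± 0.144), and the order of the others was the same except that Smad7 and Smad2 (7.58 ± 0.365), whose ranges overlapped, changed places. The type II receptor was thus counted at a higher level per kb than the type I receptor in both media, and Smad2 at a higher level than Smad3. These levels depend on the annotated exon length, which covers all transcripts of a gene.

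**Figure D1:**
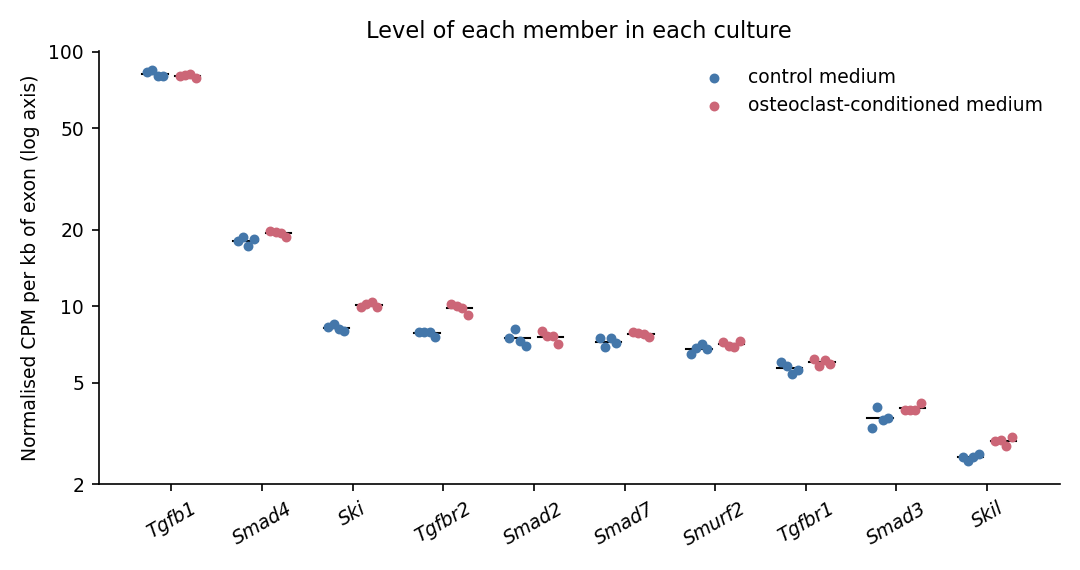
Level of each member in each culture, as normalised CPM per kb of exon on a log axis, with blue points for control and red points for osteoclast-conditioned medium (4 cultures each) and a line at each mean. Tgfb1 lies near 82 and Skil near 3, and the points of Ski, Tgfbr2 and Skil separate by medium.

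The ligand gene Tgfb1 (ENSMUSG00000002603; chromosome 7, 25687002 to 25705077, GRCm38) did not pass the test. It had 420.4, 426, 404 and 406 normalised CPM in control replicates 1 to 4 and 404, 407, 411 and 397 in osteoclast-conditioned replicates 1 to 4. The groups overlapped, with control replicates 1 and 2 the highest of the 8. Its log2 fold change was -0.03, with a 95% interval from -0.09 to 0.02 (edgeR adjusted p = 0.362). At 6240 to 9241 counts per culture this is the member with the smallest standard error (0.03).

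Of the receptors, Tgfbr2 passed the test and Tgfbr1 did not. Tgfbr2, the type II receptor that binds ligand (ENSMUSG00000032440; chromosome 9, 116084293 to 116175360), had 65.0, 64.9, 64.9 and 62.1 normalised CPM in control medium and 83.9, 82.3, 81.0 and 75.4 in osteoclast-conditioned medium. Every conditioned culture lay above every control culture, and replicate 4 was the lowest in each medium. This gave a log2 fold change of 0.33, with a standard error of 0.04 (edgeR adjusted p = 7.55e-08), a rise of 25.6%. Tgfbr1, the type I receptor and the kinase that acts on SMADs (ENSMUSG00000007613; chromosome 4, 47353222 to 47414931), had 39.6, 38.2, 35.3 and 36.8 in control medium and 40.5, 38.0, 40.2 and 38.9 in osteoclast-conditioned medium. These groups overlapped. For Tgfbr1 the log2 fold change was 0.07 (95% interval -0.02 to 0.17, edgeR adjusted p = 0.259).

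Of the receptor-activated SMADs, neither passed the test. Smad2 (ENSMUSG00000024563; chromosome 18, 76241580 to 76310963) had 65.9, 71.8, 64.0 and 61.1 normalised CPM in control medium and 70.0, 67.1, 67.0 and 62.3 in osteoclast-conditioned medium. The groups overlapped over most of their range, and replicate 4 was the lowest in both. Its log2 fold change was 0.02 (95% interval -0.08 to 0.11, edgeR adjusted p = 0.81), and it was -0.0042 when libraries were scaled by total counts only. Smad3 (ENSMUSG00000032402; chromosome 9, 63646767 to 63757994), the other substrate of the type I receptor, had 18.4, 22.4, 19.7 and 20.2 in control medium and 21.7, 21.7, 21.7 and 23.2 in osteoclast-conditioned medium. The highest control value, that of replicate 2, lay among the conditioned cultures. Smad3 had a log2 fold change of 0.12 (95% interval -0.01 to 0.25, edgeR adjusted p = 0.144). Without control replicate 2 it was 0.18, with an edgeR adjusted p of 0.0261.

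Smad4, the common partner that activated SMADs bind (ENSMUSG00000024515; chromosome 18, 73639009 to 73703780), rose by the smallest amount of the members that passed. It had 66.8, 69.2, 64.0 and 68.4 normalised CPM in control medium and 73.1, 72.6, 71.9 and 69.8 in osteoclast-conditioned medium. The groups did not overlap, though control replicate 2 and conditioned replicate 4 were nearly equal. Its log2 fold change was 0.10 (SE 0.04; edgeR adjusted p = 0.0461). This call is at the threshold: it was lost in 8 of 16 alternatives, among them total-count scaling (adjusted p = 0.116), no filter (0.0594) and DESeq2 (0.105). It was also lost without control replicate 1 (edgeR adjusted p = 0.078) or 3 (0.125) and without conditioned replicate 1 (0.111), 2 (0.0888) or 3 (0.0941).

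The negative arm of the pathway was measured through 4 members. Ski, a co-repressor of SMAD complexes (ENSMUSG00000029050; chromosome 4, 155154075 to 155222592), had 46.0, 47.4, 45.4 and 44.6 normalised CPM in control medium and 55.0, 56.8, 57.7 and 55.4 in osteoclast-conditioned medium. The lowest conditioned culture was well above the highest control culture. Ski had a log2 fold change of 0.29, with a standard error of 0.04 (edgeR adjusted p = 1.46e-06), a rise of 22.4%. Skil, its relative and a target of the pathway (ENSMUSG00000027660; chromosome 3, 31095058 to 31122577), had 24.8, 23.9, 24.9 and 25.5 in control medium and 28.7, 29.0, 27.4 and 29.6 in osteoclast-conditioned medium. Here too every conditioned culture was above every control culture. For Skil it was 0.21 (SE 0.05; edgeR adjusted p = 0.0021), a rise of 16.0%. Tgfbr2, Ski and Skil were called higher in each of the 16 alternatives run.

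Smad7, the inhibitory SMAD that pathway activity is known to induce (ENSMUSG00000025880; chromosome 18, 75367529 to 75395935), had 33.9, 31.2, 33.9 and 32.4 normalised CPM in control medium and 35.8, 35.4, 35.2 and 34.2 in osteoclast-conditioned medium. The groups did not overlap, but control replicates 1 and 3 lay just below conditioned replicate 4. The log2 fold change was 0.10 (95% interval 0.01 to 0.20), with an unadjusted p of 0.0397 and an adjusted p of 0.105 in the edgeR test, so the difference did not pass. Smurf2, the ubiquitin ligase that SMAD7 brings to the receptor (ENSMUSG00000018363; chromosome 11, 106820066 to 106920715), had 40.1, 42.4, 43.8 and 41.8 in control medium and 44.6, 43.0, 42.8 and 44.9 in osteoclast-conditioned medium. The groups overlapped through control replicate 3. Its log2 fold change was 0.06 (95% interval -0.03 to 0.15, edgeR adjusted p = 0.3).

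**Figure D2:**
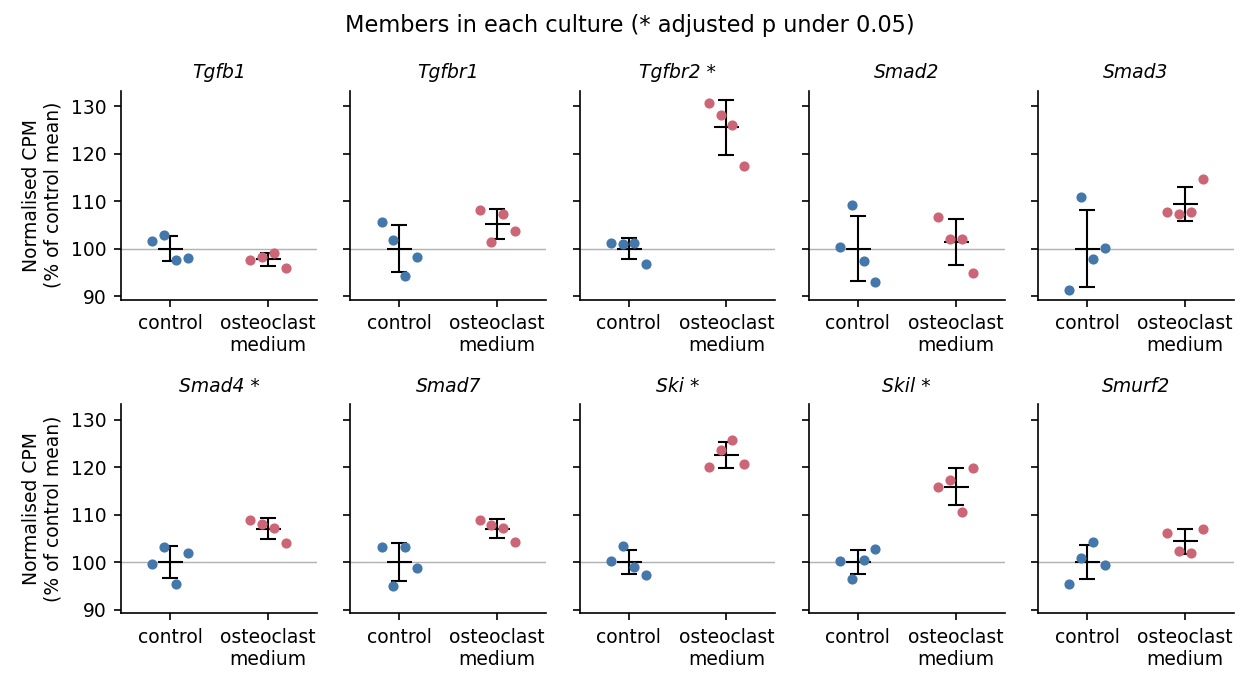
Normalised CPM of each member in each culture as a percentage of its control mean, with blue points for control and red points for osteoclast-conditioned medium, and the mean and SD of the 4 cultures in black. The red points of Tgfbr2, Ski and Skil stand clear of the blue ones, those of Smad4 and Smad7 only just, and the other members overlap.

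**Figure D3:**
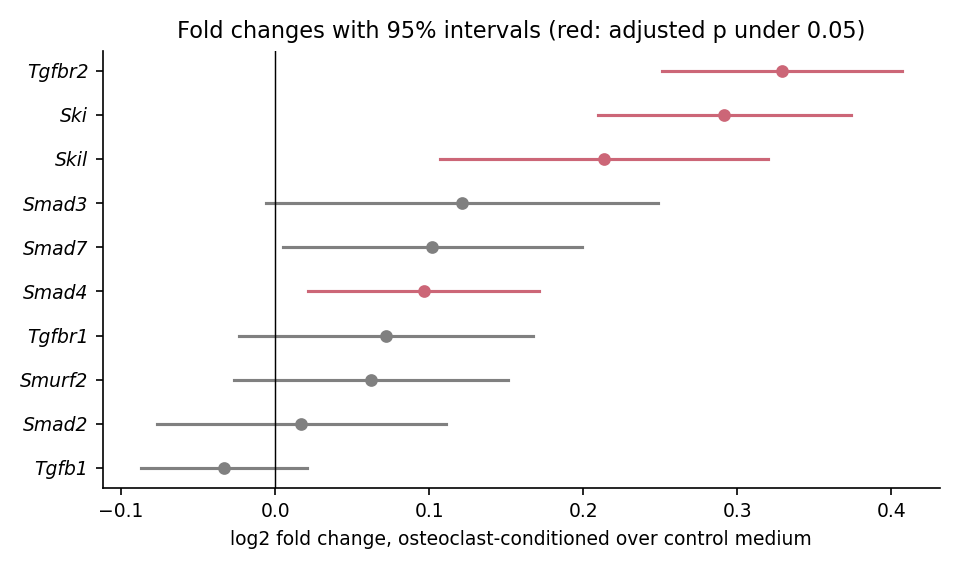
Log2 fold change of each member (osteoclast-conditioned over control medium) with its 95% interval, in order of size, with members whose edgeR adjusted p was under 0.05 in red. The order runs from Tgfbr2 (0.33) to Tgfb1 (-0.03), and the intervals of Tgfbr2, Ski and Skil overlap one another.

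Ratios of raw counts within a library do not depend on how libraries are scaled. The 4 ratios below pair genes of like role and were chosen after the values were seen, so they are a description, with no test. The ratio of Tgfbr2 to Tgfbr1 counts was 1.64, 1.70, 1.84 and 1.69 in control medium and 2.07, 2.16, 2.01 and 1.94 in osteoclast-conditioned medium. The groups did not overlap, and the ratio was 1.19-fold higher in osteoclast-conditioned medium.

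The other 2 ratios between members overlapped between media. That of Smad3 to Smad2 ran from 0.280 to 0.331 in control and from 0.310 to 0.372 in osteoclast-conditioned medium. That of Skil to Ski ran from 0.504 to 0.570 and from 0.474 to 0.535. The fourth ratio sets Tgfb1 beside Tgfb3, another ligand gene of the family. The count ratio of Tgfb3 to Tgfb1 was 0.393, 0.397, 0.403 and 0.416 in control medium and 0.510, 0.504, 0.503 and 0.504 in the other. All 4 conditioned libraries were above all 4 control libraries (1.26-fold higher).

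**Figure D4:**
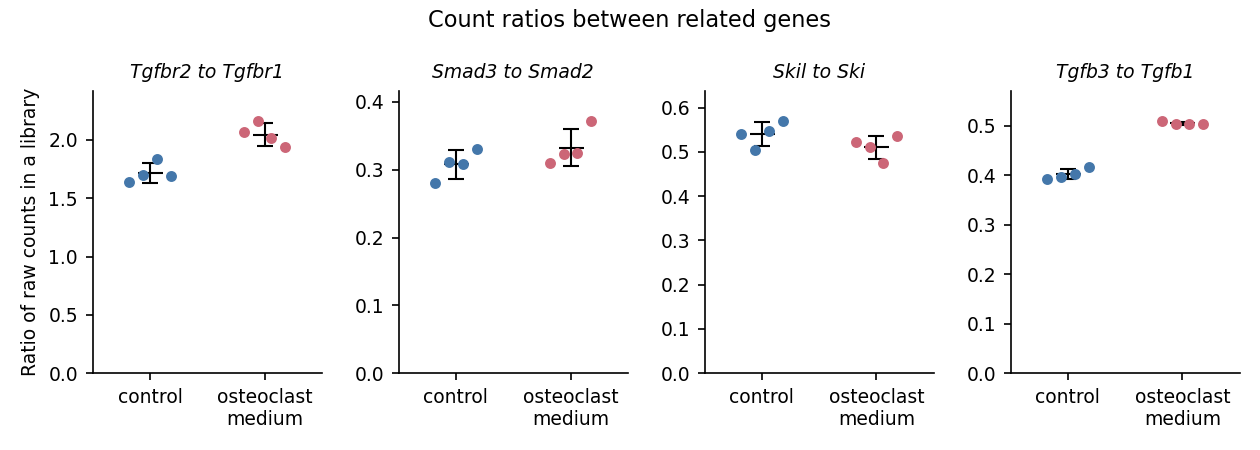
Ratio of raw counts between 2 genes in each library, on linear axes from 0, with blue points for control and red points for osteoclast-conditioned medium, and the mean and SD of the 4 libraries in black. The ratios of Tgfbr2 to Tgfbr1 and of Tgfb3 to Tgfb1 separate by medium, and the other 2 overlap.

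Beyond the members, 118 other genes of the wider pathway, in 6 lists, were examined, of which 88 passed the filter. Of these 88, 26 rose and 12 fell, that is 43.2% called against 30.5% of all tested genes, with a median log2 fold change of 0.04 against -0.01. Without conditioned replicate 3 the test called 25 of the 88 (28.4%), 6 of them lower, which is near the 24.4% of all tested genes called in that fit. It called 6 lower without control replicate 1 or conditioned replicate 2 and 7 lower without conditioned replicate 1, where 11.3% to 11.6% of all tested genes were called lower. Pmepa1 and some others stand on more than 1 list. Called genes that the naming rule left out are given where a list had few of them, and these were chosen after their values were seen. The 30 genes below the filter had at most 10 counts in any culture, and 12 of them had 0 in all 8.

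Among ligands and the proteins that hold them latent, 9 of 25 genes were tested, 3 rose and 1 fell (44.4% called, against 30.5% of all tested genes), with a median log2 fold change of 0.12. Tgfb3 rose from 166 ± 3.19 to 204 ± 3.00 normalised CPM (± SD of 4 cultures), by 0.30 on the log2 scale (edgeR adjusted p = 1.69e-09). Its exons lie for 39.8% under the span of Ttll5, introns included, on the opposite strand. Ttll5 had a log2 fold change of 0.02 (edgeR adjusted p = 0.745). Use of strand in the counting is not given in the sources used here, so reads of Tgfb3 and Ttll5 may not be separable there. Lrrc32 (GARP, which tethers latent TGF-beta to the cell surface) rose from 16.4 ± 1.25 to 21.2 ± 0.588, and Furin, the protease that cleaves the TGF-beta precursor, from 10.8 ± 0.829 to 12.8 ± 0.674. The 1 that fell was Gdf11, an activin-like ligand (-0.16, edgeR adjusted p = 0.0481), and this call was lost in 8 of 16 alternatives (adjusted p up to 0.181). Per kb of exon, Tgfb3 had 49.2 ± 0.942 in control and 60.4 ± 0.888 in osteoclast-conditioned medium, below Tgfb1 in both, while Tgfb2 had 0.171 ± 0.0226 and 0.216 ± 0.0223.

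Among other receptors and their partners, 17 of 21 were tested, 4 rose and 1 fell, with a median of 0.07. The share called, 29.4%, was near the 30.5% of all tested genes. Pmepa1, a feedback inhibitor that keeps SMAD2 and SMAD3 from the receptor, rose from 13.7 ± 0.391 to 18.2 ± 0.813 normalised CPM, by 0.42 on the log2 scale (SE 0.07; edgeR adjusted p = 1.04e-05). Ldlrad4, a relative of Pmepa1 with the same known role, had a log2 fold change of 0.17 (edgeR adjusted p = 0.0274), and Bmpr2, a type II receptor for bone morphogenetic proteins, one of 0.22 (0.0103). The call of Ldlrad4 was lost in 5 of 16 alternatives, and 52.1% of its exon bases lie under Fam210a on the opposite strand. Bmpr2 lost its call only without conditioned replicate 3 (adjusted p = 0.064). Eng, the co-receptor endoglin, rose by 0.08 on the log2 scale (edgeR adjusted p = 0.0226) and Fkbp1a (FKBP12), which holds the type I receptor inactive, fell by 0.08 (0.0303). These calls were lost in 2 (Eng) and 7 (Fkbp1a) of 16 alternatives, with an adjusted p of up to 0.085 and 0.119. Tgfbr3, the co-receptor betaglycan, had 0 to 3 counts per culture, so a difference in it was not detectable at this depth.

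Among the other SMADs and their cofactors, 18 of 23 were tested, 6 rose and 0 fell, with a median of 0.05. Here too the share called, 33.3%, was near the background of 30.5%. The histone acetyltransferases that SMAD complexes recruit both rose: Crebbp went from 119 ± 7.17 to 150 ± 4.41 normalised CPM (log2 fold change 0.34, SE 0.04) and Ep300 from 182 ± 5.76 to 211 ± 3.99 (0.21, SE 0.03), with edgeR adjusted p of 3.16e-08 and 1.10e-06. Ncor1, a co-repressor that SKI works with, rose by less (0.16, SE 0.03). Its exons lie for 20.7% under Ttc19 and Pigl on the opposite strand. The other 3 that rose, Trim33, Ctbp1 and Zeb1, did so by 0.08 to 0.10. Of 16 alternatives, the call of Zeb1 was lost in 10, that of Ctbp1 in 5 and that of Trim33 in 4, with an adjusted p of up to 0.135. Smad5, a SMAD of the bone morphogenetic protein branch, had 154 ± 5.01 and 150 ± 3.87 normalised CPM (log2 fold change -0.03, edgeR adjusted p = 0.424). Smad1, of the same branch, had 0 counts in all 8 cultures, and Smad6 had 0 to 6. The repressor Tgif1 had a log2 fold change of 0.04 (edgeR adjusted p = 0.617).

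Among ubiquitin ligases, deubiquitinases and phosphatases, 20 of 20 were tested, 7 rose and 5 fell (60.0% called, against 30.5%), with a median of 0.04. Smurf1, the ligase related to Smurf2, rose from 63.2 ± 2.36 to 71.3 ± 3.24 normalised CPM, by 0.17 on the log2 scale (SE 0.04; edgeR adjusted p = 0.00118). Whether Smurf1 and Smurf2 changed by different amounts was not tested. Ppp1r15a (GADD34, a phosphatase subunit that SMAD7 can bring to the receptor) rose by 0.33 and Usp9x, which removes a ubiquitin from SMAD4, by 0.22 on the log2 scale. Of the exon bases of Ppp1r15a, 13.9% lie under Tulp2, a gene below the filter. Ppp2r2a, a regulatory subunit of protein phosphatase PP2A, fell by 0.20, and Uchl5, Stub1, Skp1a and Ppp1cc fell by 0.07 to 0.16. Of the exon bases of Stub1, 42.3% lie under Jmjd8 on the opposite strand, which had a log2 fold change of -0.21 (edgeR adjusted p = 0.0502), so their reads may not be separable there. Of 16 alternatives, the call of Ppp1cc was lost in 9, that of Skp1a in 6 and that of Stub1 in 3 (adjusted p up to 0.173), and that of Uchl5 in 0. The others that rose were Ppm1a, Cyld, Wwp2 and Rnf111, by 0.11 to 0.15, of which Rnf111 lost its call in 10 of 16 alternatives (adjusted p up to 0.129).

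Of 27 genes listed as induced targets, 23 were tested, 7 rose, 1 fell and 15 did not pass, with a median log2 fold change of 0.04. The share called, 34.8%, was close to the 30.5% of all tested genes. Tsc22d3 (GILZ), which glucocorticoids induce and whose response to TGF-beta is less established, rose from 36.0 ± 1.94 to 52.2 ± 2.47 normalised CPM. This was a rise of 0.53 on the log2 scale (SE 0.05, edgeR adjusted p = 3.77e-10). Pmepa1, given above, is on this list as well. Klf10, an early TGF-beta-induced gene, fell from 20.7 ± 1.55 to 15.8 ± 1.43 and so had a log2 fold change of -0.40, with a standard error of 0.07 (edgeR adjusted p = 6.35e-05). Dusp4, Fn1 and Bcl2l11 rose by 0.20 to 0.35, and Tgfbi, named for its induction by TGF-beta but counted at only 2.82 normalised CPM on average, by 0.55 (edgeR adjusted p = 0.00921). Tgfbi lost its call without control replicate 4 (edgeR adjusted p = 0.0546).

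Of 7 genes that the pathway is known to repress, 6 were tested, 4 fell and 1 rose, with a median of -0.14. This is 83.3% called, where 30.5% of all tested genes were called and 14.8% were called lower, in a list of 6 tested genes. Id3, an inhibitor of basic helix-loop-helix factors, fell from 18.9 ± 0.829 to 13.6 ± 0.756 normalised CPM, a log2 fold change of -0.48 with a standard error of 0.07 (edgeR adjusted p = 1.72e-06). Cdc25a, a phosphatase that drives the cell cycle, fell by 0.16 on the log2 scale, Myc, which promotes growth, fell by 0.11, Id2, at a mean of 2.50 normalised CPM, fell by 0.56 (edgeR adjusted p = 0.0223), and Ccnd2, which encodes cyclin D2, rose by 0.13. The calls of Id2 and Myc were lost in 5 of 15 and 4 of 16 alternatives, with an adjusted p of up to 0.0972 and 0.06. Id1 had 0 to 6 counts per culture, below the filter. Id3 is also a target of the bone morphogenetic protein branch.

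**Figure D5:**
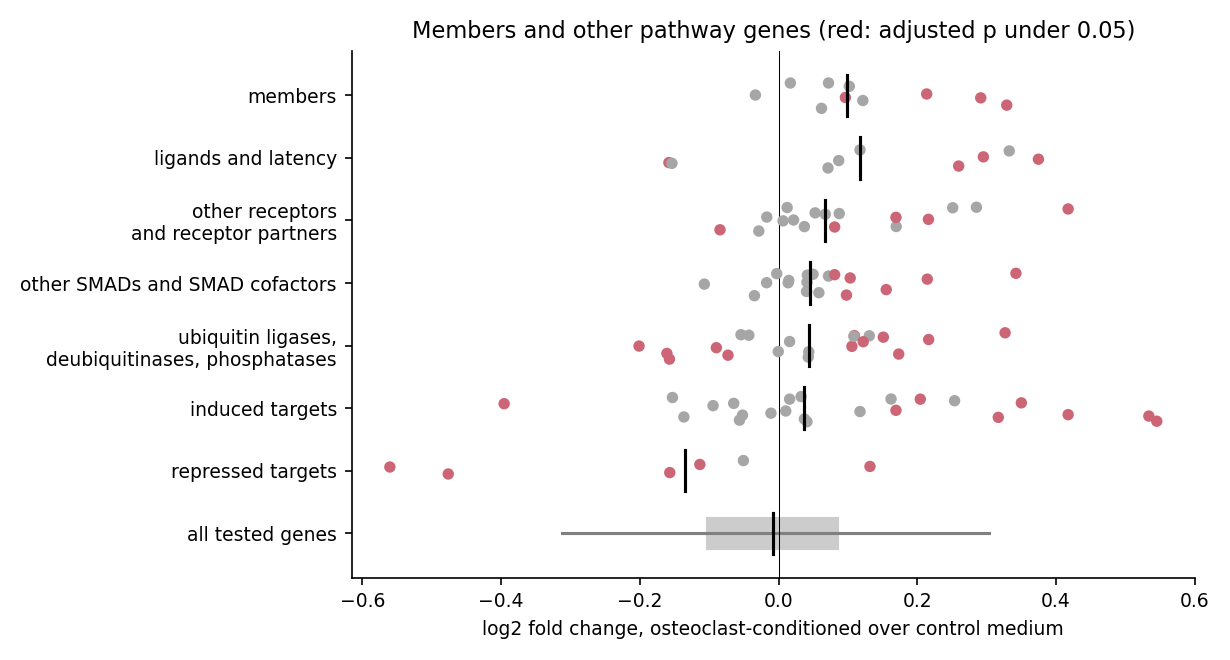
Log2 fold change (osteoclast-conditioned over control medium) of each tested gene in the members and the 6 wider lists, with genes whose edgeR adjusted p was under 0.05 in red and a black bar at each list's median. The last line gives all 10729 tested genes, with a box from the 25th to the 75th percentile (-0.10 to 0.09) and a line from the 5th to the 95th (-0.31 to 0.30). A gene on 2 lists is drawn in both, and most called genes of the lists lie inside that line.

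The genes whose log2 CPM over the 8 cultures was most like that of Tgfbr2, outside the lists, were Prkcb (Pearson r = 0.994), Gpat3 (0.992) and Eef1g (0.991), with log2 fold changes of 0.22, 0.32 and 0.08. The cultures share their medium, and 645 of the 10729 genes had r above 0.9 with Tgfbr2, so the likeness is a description. Among the members, r with Tgfbr2 was highest for Ski (0.961), then Skil (0.862), Smad4 (0.833) and Smad7 (0.832), and lowest for Tgfb1 (-0.394).

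Markers of the cells that conditioned the medium were examined beside these results. Of 12 osteoclast markers, 9 were below the filter, with 14 to 20 counts in sum per control culture and 15 to 25 per conditioned culture. Dcstamp and Ocstamp, needed for osteoclast fusion, were at 0 in all 8 cultures, and Ctsk, the collagen-degrading protease of osteoclasts, had 0 to 5 counts. The summed level of the 12 was 128 to 135 normalised CPM in control and 139 to 145 in osteoclast-conditioned medium (two-sided exact permutation test, p = 0.0286, the smallest that 4 against 4 cultures allow). Groups were likewise without overlap in 28.2% of all tested genes. Most of the sum was Nfatc1, Acp5 and Itgb3, the 3 that were tested. Of these, Nfatc1 rose from a mean of 95.6 to 105.8 normalised CPM (log2 fold change 0.15, edgeR adjusted p = 0.000806), Itgb3 fell (-0.25, 0.0185) and Acp5 had 0.08 (0.332). The call of Itgb3 was lost in 3 of 16 alternatives (adjusted p up to 0.0879). Of 6 stromal markers 4 were at 0 in every culture and the other 2 had at most 1 count in sum per culture. Macrophage markers summed to 20.7 to 22.1 and 21.2 to 25.2 normalised CPM, mostly Mrc1 and Lyz2, with Cd14 at 0 and Lyz2 higher by 0.40 on the log2 scale (edgeR adjusted p = 0.0119, and 0.0639 without conditioned replicate 2). Their part in the results was not tested. T-cell markers summed to 133 to 137 over both media, nearly all Lck, and Cd3g and Cd8a were at 0.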

How the data were processed

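RNA of 8 cultures of PER-M60 was sequenced; per the labels' protocols the RNeasy Plus Mini kit was used for extraction and SureSelect HS2 for library preparation. The table deposited holds 1 raw count for each gene and culture, neither normalised nor pooled. Per the submitters' processing notes, STAR 2.7.5a, featureCounts 2.0.1 and build mm10 were used; the annotation, the strand setting and any use of molecular barcodes are not given in the sources used here. Columns were matched to samples by the number in their header, and 0 were left over. Genes were named from GENCODE M21 (GRCm38, the assembly of mm10): 21817 of 21859 IDs matched. Upstream sequences are those of RefSeq on GRCm38.p6, whose table held 6 of the 10 members.

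Counts were tested with edgeR 4.0.16 (R 4.3.3): filterByExpr, TMM, glmQLFit with robust estimation and glmQLFTest with medium as the only term, Benjamini-Hochberg over all 10729 tested genes, threshold 0.05. Standard errors are the absolute log2 change divided by the square root of F, and intervals are at 95%. The fit was also run on simulated counts with the same dispersion for every gene, and no result here rests on that run. Levels per kb use the union of M21 exons. Shares of exon bases under another gene count the whole span of that gene, introns included. Log2 CPM used a prior count of 2. Single values were compared by exact permutation (scipy 1.17.1). Total counts per culture give a floor of 3 counts.

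The members, lists and tests were chosen with earlier results of these data known. Named were all members; of each list up to 3 called genes with the largest change and a mean of at least 5 CPM; Smad1, Smad5, Smad6, Tgfbr3, Smurf1, Tgif1, Klf10, Id1 and Id3; and the 3 genes most like the member with the smallest p-value. Some listed genes are not reported here. Marker genes and overlap partners were named beside results they touch. Alternatives were DESeq2 size factors, total-count scaling, no filter, a mean of at least 50 counts, DESeq2 1.42.0, limma-voom (limma 3.58.1), no robust estimation, a replicate block and leaving out each culture.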

Additional observations from a re-analysis of the deposited data

Results flagged for a closer look

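For the members, the tested pathway genes that the naming rule gave, every other called pathway gene, the tested osteoclast markers and their sum, Lyz2 and the 3 genes most like Tgfbr2, the highest and lowest culture of each medium were compared with the other 3 with Dixon's test, whose ratio sets the distance to the next culture against the whole range. Of 116 groups of 4 cultures, 5 passed the 95% critical value, where chance gives about 5.8.

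Tgfbr2 was lowest in control replicate 4, at 62.1 normalised CPM against 64.9 to 65.0 in the other control cultures (ratio 0.978). Smad3 was highest in osteoclast-conditioned replicate 4, at 23.2 against 21.7 in each of the others (ratio 0.953). Id3 was lowest in control replicate 3, at 17.7 against 19.3 to 19.4 (ratio 0.971). Conditioned replicate 4 had 63.0 normalised CPM of Zeb1, where its 3 fellow cultures had 69.5 to 70.0 (ratio 0.926). Wwp2, a ubiquitin ligase that was called higher, was also lowest there, at 179 against 184 to 185 (ratio 0.839). Tgfbr2, Id3 and Wwp2 kept their call and direction in every fit that left out 1 culture.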

How the results depend on the processing

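Of 160 refits of single members, 148 kept the direction and the side of the threshold, 8 lost the call (all Smad4), 1 gained it (Smad3, without control replicate 2) and 3 changed sign (all Smad2, never called): -0.0042 with total-count scaling, and from -0.0132 to 0.0672 over the fits that left out 1 culture. Of 320 refits of the 20 tested pathway genes that the naming rule gave, 314 kept both and 6 lost the call (5 of Ldlrad4, 1 of Bmpr2). The other called pathway genes, some of them near the threshold, were refitted as alternatives chosen after seeing the data. So were the markers and genes like Tgfbr2 that have a test above. Of these 431 refits, 353 kept both, 78 lost the call and 0 changed sign. Members called ran from 3 to 5 when 1 culture was left out. Pathway genes called ran from 25 to 38 in those fits, lowest without conditioned replicate 3, and those lower from 6 to 11 (6 also without control replicate 1 or conditioned replicate 2). DESeq2 called 7 lower. The osteoclast marker difference was 9.58 normalised CPM, and from 8.21 to 10.4 without 1 culture, where the exact p cannot go below 0.0571. Total-count scaling called 3395 genes, 40.7% of them higher, against 51.6% with TMM, and moved the median of all genes from -0.01 to -0.03.

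Replicates are numbered 1 to 4 in both media, but deviations of same-numbered cultures from their group means correlated by only -0.05 to 0.14 (mean 0.04), and 3 of 8 cultures correlated best with their own number, so the numbers were not taken as pairs. With the replicate block 3446 genes were called against 3273, and 4 members and 38 pathway genes, as without it. The block changed no call of a member or of a gene the naming rule gave. At this depth the standard errors of the members ran from 0.03 (Tgfb1) to 0.06 (Smad3) on the log2 scale.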
